A study of Mus musculus with 56 samples.

Results

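Transcripts of 10 enzymes of mitochondrial fatty acid beta-oxidation were followed over the day in mouse heart under daytime and nighttime feeding. The genes were chosen by symbol: the acyl-CoA dehydrogenases Acadm, Acadl, Acadvl and Acad11, the trifunctional protein subunits Hadha and Hadhb, the hydroxyacyl-CoA dehydrogenase Hadh, the auxiliary enzymes Decr1 and Eci1, and the electron carrier Etfdh. All 10 were among the 22864 genes listed and among the 13869 that passed the filter on low values, a mean of at least 1 TPM (a transcript level corrected for gene length and library size) over all libraries. Hearts came from female C57BL/6J mice aged 9 weeks kept in a cycle of 12 h light and 12 h dark. After 7 days of free feeding, food was offered for 7 days either in the daytime (daytime-restricted feeding, DRF) or at night (nighttime-restricted feeding, NRF, the control regimen). PolyA RNA was sequenced at 0, 4, 8, 12, 16, 20 and 24 h after lights on (zeitgeber time, ZT), with 4 libraries in each of 14 groups. The comparisons are between these 2 feeding schedules, without a freely fed group. No transgene, deletion or drug was used in either group. The labels number the 4 libraries of a group but do not tie them to animals, so p-values measure only the spread between these libraries, which may be technical.

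Beta-oxidation removes carbon units from fatty acyl-CoA inside mitochondria in a repeating cycle of dehydrogenation, hydration, a second dehydrogenation and thiolytic cleavage. The adult heart draws much of its ATP from this pathway, and its flow is known to increase during fasting. The electrons of the first step pass through the electron transfer flavoprotein and its oxidoreductase, encoded by Etfdh, to ubiquinone. Many genes of the pathway are known targets of the fatty acid sensing nuclear receptors of the PPAR family and of the estrogen-related receptors.

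The libraries held 29.5 to 53.4 M reads (median 37.7 M), and each of the 10 genes had at least 2931 reads in every library, so counting error was small beside the spread between libraries. Mitochondrially encoded genes took 21.6% ± 1.46 (SD, n = 28) of the reads in DRF libraries and 20.3% ± 1.56 (n = 28) in NRF libraries. Markers of heart muscle cells were abundant: the 6 of 6 listed cardiomyocyte markers summed to between 22876 and 31151 TPM under DRF and between 26903 and 36494 TPM under NRF. Other marker sums varied. The 4 atrial markers summed to 4.68 to 2457 TPM over DRF libraries and 6.78 to 2274 TPM over NRF libraries, with medians of 884 and 272 TPM. The 6 adipocyte markers summed to 5.53 to 212 TPM and 14 to 194 TPM, and the 4 erythroid markers to 1608 to 62602 TPM and 1378 to 36614 TPM. Fibroblast, endothelial, smooth muscle and macrophage marker sums had lower medians under DRF (637, 517, 268 and 397 TPM) than under NRF (685, 581, 325 and 498 TPM), with overlapping ranges, and no marker of these 4 lists was at 0 in any library. The brown adipocyte markers Ucp1 and Elovl3, the adipocyte marker Lep and the atrial markers Bmp10 and Sln were at 0 in some libraries. Of the 5 skeletal muscle markers 3 were listed, with sums of 880.3 to 1338 TPM under DRF and 1004 to 1617 TPM under NRF, and some of these are also heart genes. The 3 brown adipocyte markers summed to 37.2 to 168 TPM and 36.7 to 72.1 TPM.

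Expression in 2 libraries went against their labels. Over 1096 genes whose rhythm differed between the regimens (adjusted p under 0.001, limma, none of the 10 enzymes among them), the library labelled DRF ZT4 replicate 1 had a correlation of -0.21 with the mean of the other libraries of its group and of 0.82 with the NRF ZT8 mean. The library labelled NRF ZT8 replicate 1 had correlations of -0.15 with its own group and 0.72 with the DRF ZT4 mean. Dbp, a clock output factor, stood at 118 TPM in the first of these and at 17.5 to 37.4 TPM in the other DRF ZT4 libraries, and at 19.9 TPM in the second and 116 to 157 TPM in the other NRF ZT8 libraries. In the other 54 libraries the best matching group exceeded the labelled group by at most 0.07 in correlation. Both libraries were kept under their labels, and the counts of called enzymes, the fitted peaks and the correlations are also given without them.

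The transcripts ranged over a wide span of levels, in an order that hardly changed between libraries. Acadl, the long-chain acyl-CoA dehydrogenase, was the most abundant at 1033 ± 69.9 TPM (SD, n = 56), and ranked 91 among all listed genes. Acadm, the medium-chain enzyme, followed at 581 ± 44.7 TPM and Eci1, the enoyl-CoA isomerase, at 556 ± 52.3 TPM. The ranges of these neighbours overlapped, with Acadm above Eci1 in 45 of 56 libraries. Acadvl, the very-long-chain dehydrogenase, stood at 436 ± 37.4 TPM and Hadhb at 425 ± 34.6 TPM, again a pair that overlapped, with Acadvl higher in 39 of 56 libraries. Hadha (336 ± 28.8 TPM), Hadh (253 ± 19.5 TPM), Decr1 (212 ± 19.5 TPM) and Etfdh (168 ± 15.7 TPM) followed in an order that held in all 56 libraries. Acad11, an acyl-CoA dehydrogenase family member, was far lower at 22.9 ± 2.17 TPM and ranked 3686. Over the 56 libraries the SD of each of the 10 was between 6.77% (Acadl) and 9.46% (Acad11) of its mean. The level of Eci1 rests on an exon length of 1091 bases found from the values, against 2127 bases in the annotation, and would be lower with the annotated length, so its place in the order rests on that length.

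**Figure D1:**
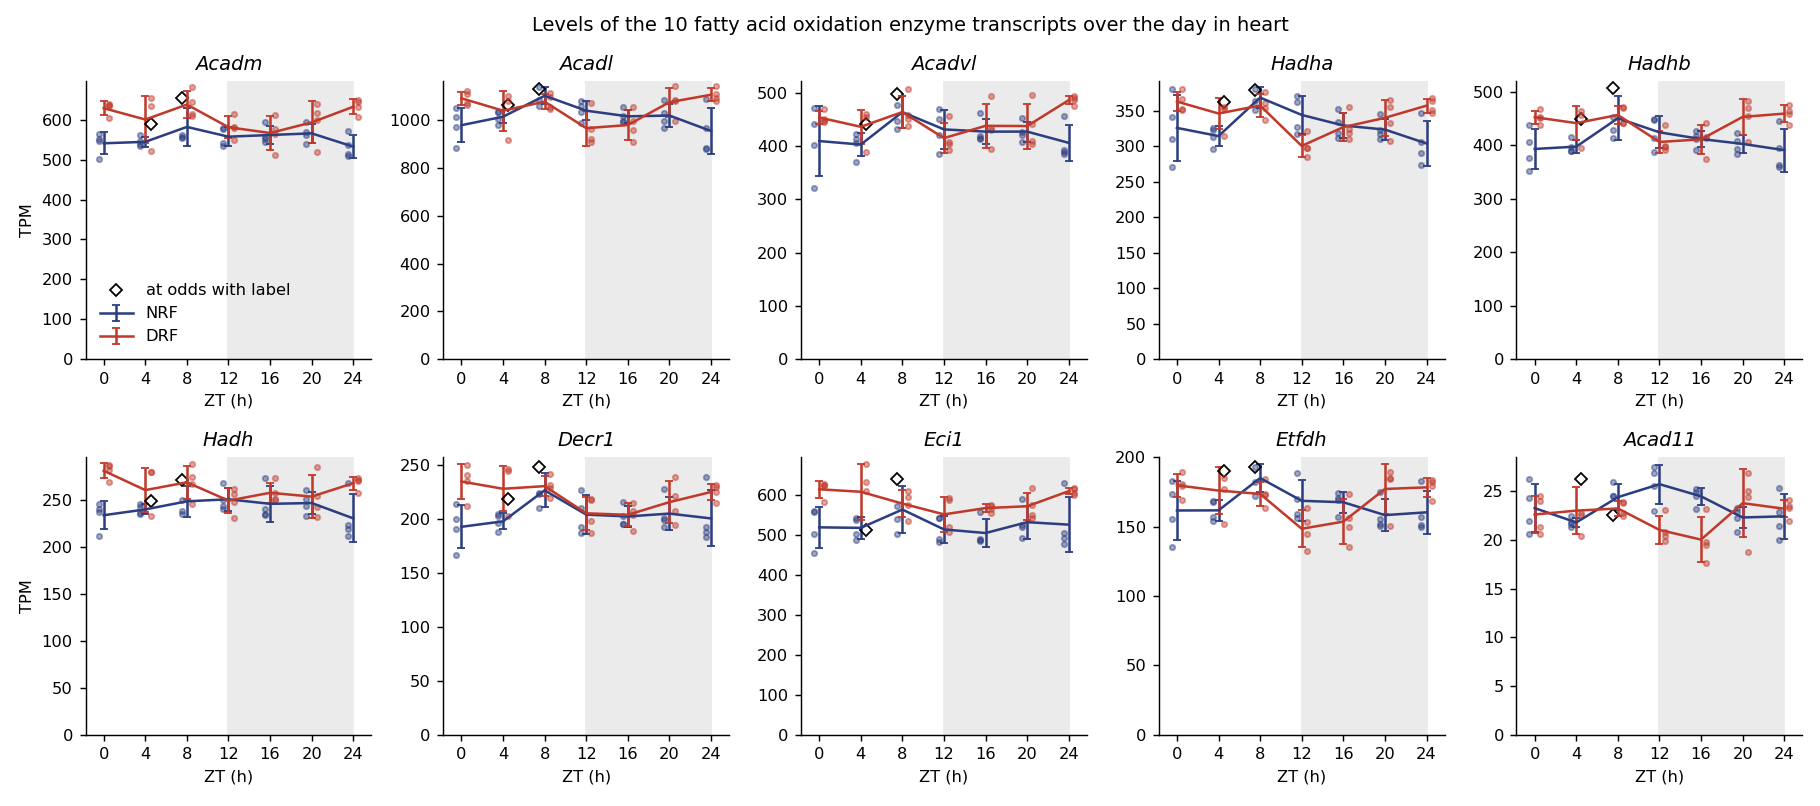
TPM of each enzyme transcript (y axis, from 0) against ZT in hours (x axis) under NRF (blue) and DRF (red). Lines join group means, bars are SD over 4 libraries, points are libraries, open diamonds are the 2 libraries at odds with their labels, and the grey band is the dark phase. The DRF means of the 9 enzymes other than Acad11 lie above the NRF means at ZT0 and ZT24, while at ZT12 the log2 differences of these 9 run from -0.19 (Hadha) to 0.10 (Eci1) and Acad11 is lower under DRF at ZT12 and ZT16.

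The first question was whether these transcripts followed the light-dark cycle or the feeding schedule. A 24-h cosine was fitted to log2(TPM + 1) within each regimen, and the difference between the fitted rhythms was tested with limma across all 13869 genes. With time counted from lights on, the rhythm of 6 of the 10 differed between DRF and NRF, against 27.7% of all genes: Hadha (adjusted p = 0.00163), Etfdh (0.00218), Acadl (0.00233), Hadhb (0.00456), Acad11 (0.0074) and Decr1 (0.0438). The other 4 did not pass: Hadh (0.0582), Acadm (0.0599), Acadvl (0.0756) and Eci1 (0.351). With time counted from the start of feeding, taken as lights on under DRF and lights off under NRF, 0 of the 10 differed, against 41.5% of all genes. The lowest adjusted p there was 0.109, for Etfdh, and 0 of the 10 reached an unadjusted p under 0.05 (6905 of all genes did), which does not show that the rhythms were equal. A difference called by clock time and none called by feeding time was thus found for 6 of the 10 and for 13.2% of all genes. The clock and feeding comparisons use the same libraries and are not independent of each other.

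Without the 2 libraries at odds with their labels, 8 of the 10 differed by clock time, against 30.6% of all genes, Acadm (adjusted p = 0.0241) and Hadh (0.0414) being added, and 0 differed by feeding time, against 43.6%, with 1 at an unadjusted p under 0.05, Eci1 (adjusted p = 0.0554). Decr1 lost its clock-time call with median-of-ratios scaling (adjusted p = 0.249, 5 of the 10 called), and Acadvl gained one in TPM without mitochondrially encoded genes (0.049, 7 called). The clock-time count was 2 when ZT12 was left out and 3 on the values as deposited. For these fits and both scalings the share of all genes called was not counted. The cause of the changes was not tested.

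Within each regimen the rhythms were shallow. Under DRF 5 of the 10 were rhythmic, against 32.4% of all genes: Etfdh (adjusted p = 0.00591), Hadha (0.00869), Decr1 (0.018), Acadl (0.0298) and Hadhb (0.0402). Under NRF only Acad11 passed among the 10 (0.0217), against 37.3% of all genes, while Acadl (0.0509), Hadha (0.0518) and Hadhb (0.0527) lay just past the threshold. None of the 10 was rhythmic under both regimens, against 17.7% of all genes (4 of the 10 and 3630 of the 13869 genes at unadjusted p-values under 0.05), so no phase shift was called for any of them with this scaling. Without the 2 libraries 6 were rhythmic under DRF, against 30% of all genes, and 1 under NRF, against 43%. Leaving out any one replicate number in all groups gave 0 to 3 rhythmic enzymes under DRF and 0 under NRF. The share of all genes that were rhythmic was not counted in these fits or under the other scalings that follow. The balance between regimens depended on the scaling: TPM without mitochondrially encoded genes gave 5 rhythmic under NRF (Acadl, 0.0105; Hadha, 0.00598; Hadhb, 0.0172; Etfdh, 0.0392; Acad11, 0.00297) and 1 under DRF (Etfdh, 0.0362), so that Etfdh was then rhythmic under both, with peaks 8.91 h apart, and median-of-ratios scaling gave 1 under each (Acad11, 0.00595, and Etfdh, 0.0328).

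The fitted peaks are given as descriptions, with standard errors. Under DRF the 10 peaks lay between ZT1.22 ± 1.25 (Acadl) and ZT3.44 ± 1.5 (Acadm). Under NRF 9 of them lay between ZT9.52 ± 1.47 (Etfdh) and ZT12.5 ± 2 (Hadh), and Eci1 peaked at ZT6.36 ± 3.5 with a fitted amplitude no larger than its error. Fitted peak-to-trough folds ran from 1.05 (Eci1) to 1.14 (Hadha) under NRF and from 1.07 (Hadh) to 1.2 (Etfdh) under DRF. The larger of the 2 amplitudes had a median of 0.08 on the log2 scale over the 10 enzymes, below the median of 0.13 over all tested genes. The fitted absolute distance between the DRF and NRF peaks was 8.74 h for Hadha (95% interval 5.36 to 12 h), 8.03 h for Etfdh (4.58 to 11.5 h), 8.97 h for Acadl (5.35 to 12 h) and 4.66 h for Eci1 (0 to 12 h). For Acad11 the distance was 10.025 h (5.97 to 12 h), with a DRF rhythm that was not called (limma, adjusted p = 0.148). When both libraries at odds with their labels were left out, the peaks lay between ZT1.3 (Acadl) and ZT3.59 (Acadm) under DRF and, Eci1 aside, between ZT9.78 (Etfdh) and ZT14.4 (Acadm, ZT12.2 with them) under NRF, the folds ran from 1.02 to 1.14 under NRF and from 1.09 to 1.19 under DRF, and the Eci1 distance was 1.28 h (0 to 12 h). The distances also moved with median-of-ratios scaling, to 11.4 h for Hadha, 11.6 h for Acadl and Hadhb, 9.96 h for Etfdh and, for Hadh, from 10.3 to 7.24 h, across the 8 h limit of the inverted class.

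**Figure D2:**
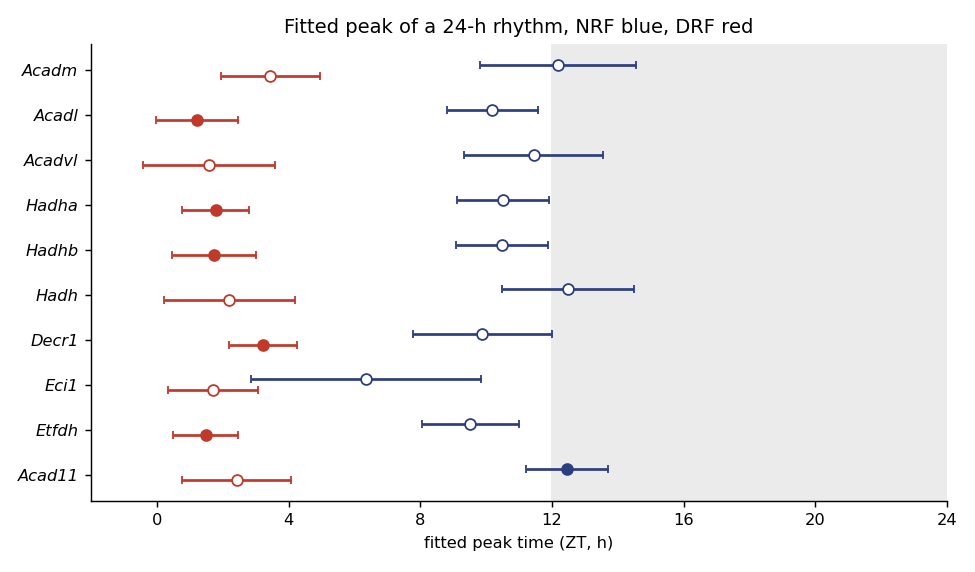
Fitted peak time in ZT hours (x axis) of each enzyme transcript under NRF (blue) and DRF (red), with standard errors as bars. Filled points are rhythms with an adjusted p under 0.05 and open points are fits that missed it. The DRF peaks cluster between ZT1.22 and ZT3.44, and the NRF peaks, apart from that of Eci1, between ZT9.52 and ZT12.5.

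Among the acyl-CoA dehydrogenases, which catalyse the first step of the cycle for chains of different length, Acadl was the most abundant. Its DRF libraries held 1065, 1122, 1072 and 1107 TPM at ZT0 and 921, 909, 964 and 1071 TPM at ZT12. Its NRF libraries held 1012, 883, 1049.6 and 970.5 TPM at ZT0 and 1079, 1058, 1034 and 987 TPM at ZT12. The order of the regimens was thus opposite at the 2 times, with no overlap at ZT0 and 1 DRF library inside the NRF range at ZT12. The log2 difference between DRF and NRF was 0.16 ± 0.06 (SE) at ZT0 (adjusted p = 0.0761) and -0.11 ± 0.06 at ZT12 (0.277), neither called alone, and 0.22 ± 0.06 at ZT24 (0.0165).

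Acadm, the enzyme whose inherited loss is a common human disorder of beta-oxidation, was higher under DRF at ZT0, at ZT24 and over the day. At ZT0 its 4 DRF libraries held 636, 638, 604 and 639 TPM and its 4 NRF libraries 552, 502, 564 and 546 TPM. At ZT24 the values were 645, 606, 631 and 649 TPM under DRF and 536, 571, 509.7 and 513 TPM under NRF. The groups did not overlap at either time, and the log2 differences of 0.22 ± 0.06 (adjusted p = 0.0159) and 0.25 ± 0.06 (0.0081) both passed. Over the whole day the Acadm mean was 606 ± 43 TPM (SD, n = 28) with daytime and 555 ± 29.7 TPM (n = 28) with nighttime feeding, a difference of 0.12 ± 0.02 on the log2 scale (adjusted p = 0.000166). At ZT12 and ZT16 the difference was 0.06 and 0.01 and was not called.

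Acadvl acts on the longest chains at the inner mitochondrial membrane. It differed between regimens at ZT24, where the DRF libraries held 475, 487, 490.0 and 494 TPM and the NRF libraries 389.9, 456, 385 and 393 TPM. All DRF libraries were above all NRF libraries there, by 0.26 ± 0.08 on the log2 scale (adjusted p = 0.031). At ZT0, the same phase of the light cycle, the NRF libraries spread widely (442, 322, 472 and 403 TPM), with 1 above and 3 below every DRF library (445 to 471 TPM), and the difference of 0.16 ± 0.08 was not called (0.197).

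Acad11 differed from the other dehydrogenases in level. Its fitted peaks, at ZT12.4 under NRF and ZT2.42 under DRF, lay within the ranges of the other enzymes. Its NRF libraries held 27.5, 25.6, 26.8 and 22.9 TPM at ZT12 and 24.9, 25.2, 24.5 and 23.2 TPM at ZT16. Its DRF libraries held 20.8, 19.8, 20.4 and 23.1 TPM at ZT12 and 23.2, 19.7, 19.5 and 17.7 TPM at ZT16. At ZT12 3 of the 4 DRF libraries were below all NRF libraries, and at ZT16 none of the DRF libraries exceeded an NRF library (such a separation held for 17.8% of all genes). The transcript was lower under DRF by 0.28 ± 0.08 on the log2 scale at both times (adjusted p = 0.0278 and 0.0277), the only enzyme of the 10 called at these times, against 6.47% and 6.27% of all genes called lower. Each call was lost when any of 6 of the 8 libraries compared was left out, and the ZT12 call also under both other scalings (adjusted p = 0.0552 with median-of-ratios scaling and 0.0621 without mitochondrially encoded genes) and the ZT16 call with median-of-ratios scaling. Whether the counting separated strands is not given in the sources used here. Acad11 shares exon bases with Ackr4 on the other strand (mean 3.43 TPM) and with the readthrough gene Gm28305 on its own strand.

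Hadha and Hadhb encode the alpha and beta subunits of the mitochondrial trifunctional protein, which carries out the hydration, the second dehydrogenation and the thiolytic step for long chains. The genes lie head to head on chromosome 5 (GRCm38, GENCODE M21): Hadha at 30118304 to 30155162 on the minus strand with 19 exon blocks, and Hadhb at 30155248 to 30184593 on the plus strand with 15. Only 85 bases separate the annotated starts, and this stretch is shown because it lies between them. Whether the pair shares a promoter was not tested. In the RefSeq promoter set described below, the upstream 250 bases span 30154981 to 30155230 for Hadha and 30155003 to 30155252 for Hadhb. Their correlation over the 14 group means was 0.88 (0.84 without the 2 libraries at odds with their labels), and 9 other pairs of the 10 enzymes had a higher one. The gap reads, from RefSeq GRCm38.p6 at chr5:30155163-30155247, plus strand, 5′ to 3′ toward Hadhb:
Hadha-Hadhb gap: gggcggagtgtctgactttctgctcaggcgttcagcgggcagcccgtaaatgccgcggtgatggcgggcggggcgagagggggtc
Its GC content was 69.4%, and it held 0 matches to the motifs described with the promoters.

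Hadha was lowest at ZT12 under DRF, where the libraries held 285, 298, 298 and 321 TPM (300.4 ± 15.2, SD, n = 4). The NRF libraries at ZT12 held 371, 317, 362 and 327 TPM (344 ± 26.3). At ZT24 the order was the opposite, with 368, 347, 350.4 and 363 TPM under DRF and 305, 347, 273 and 290.0 TPM under NRF. The difference passed at ZT24 (log2 0.24 ± 0.07, adjusted p = 0.0274) and missed at ZT12 (-0.19 ± 0.07, 0.0821). The DRF libraries at ZT12 overlapped the NRF range through 1 library, at 321 TPM.

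Hadhb held 453, 451, 438 and 467 TPM at ZT0 under DRF and 406, 351, 438 and 376 TPM under NRF, so that the lowest DRF and the highest NRF library nearly met. At ZT24 it held 474, 458, 438 and 465 TPM under DRF and 394, 446, 359 and 363 TPM under NRF. The log2 differences were 0.21 ± 0.07 (adjusted p = 0.0355) and 0.24 ± 0.07 (0.0195). Over the whole day Hadhb was higher by 0.10 ± 0.03 (0.00233). The day difference of Hadha was 0.05 ± 0.03 (0.141), and Hadha was called higher with median-of-ratios scaling (0.11, 0.00216) and without mitochondrially encoded genes (0.09, 0.011).

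Hadh, the hydroxyacyl-CoA dehydrogenase for medium and short chains, held 287, 283, 269.6 and 286 TPM at ZT0 under DRF and 246, 212, 241 and 237 TPM under NRF. The groups were separate, and the difference of 0.27 ± 0.07 on the log2 scale (adjusted p = 0.0058) had the lowest adjusted p of the 10 at this time. At ZT24 NRF replicate 2, at 269 TPM, lay inside the DRF range of 258 to 273 TPM while the other NRF libraries held 212 to 223 TPM, and the difference was 0.22 ± 0.07 (0.0276).

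Decr1 and Eci1 handle double bonds of unsaturated fatty acids, Decr1 as a dienoyl-CoA reductase and Eci1 as an enoyl-CoA isomerase, so that their products can enter the cycle. Decr1 held 212, 235, 241 and 250.2 TPM at ZT0 under DRF and 199.7, 166, 213 and 191 TPM under NRF. The highest NRF library thus lay just inside the DRF range, and the difference of 0.29 ± 0.08 on the log2 scale (adjusted p = 0.011) was the greatest of the 10 at this time. Eci1 held 583, 622, 626 and 627 TPM at ZT0 under DRF and 561, 455, 558 and 503 TPM under NRF, without overlap, a difference of 0.25 ± 0.08 (0.0332). At ZT24 neither was called (Decr1 0.153, Eci1 0.0675), and in both genes NRF replicate 2 was the highest library of either group, at 239 and 629 TPM.

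Etfdh, which passes the electrons of the dehydrogenases to ubiquinone, had the deepest fitted DRF rhythm of the 10. Under DRF it held 179, 181, 169 and 189.7 TPM at ZT0, 132, 145, 153 and 164 TPM at ZT12, and 182, 179, 169 and 184 TPM at ZT24. All 4 libraries at ZT12 were below all 8 at ZT0 and ZT24. Under NRF it was highest at ZT8 (193, 193, 172 and 182 TPM, the first of them the library at odds with its label) and held 174, 135, 183 and 155 TPM at ZT0. Its mean over the day did not differ detectably between regimens (169.6 ± 16.9 and 166 ± 14.6 TPM, log2 difference 0.03 ± 0.03, adjusted p = 0.55), but was called higher under DRF with median-of-ratios scaling (0.09, 0.0486). No single ZT was called. Etfdh shares exon bases with 4930579G24Rik on the other strand, which averaged 2.32 TPM. Acadvl and Hadha likewise share exon bases with Dvl2 (3.12 TPM) and Garem2 (0.124 TPM), each on the other strand.

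The next question was at which times the regimens differed in level. At ZT0, when the schedule put DRF hearts at the end of the fast and NRF hearts at the end of feeding, 5 of the 10 were higher under DRF, against 3.03% of all genes called higher: Acadm, Hadhb, Hadh, Decr1 and Eci1, by 1.15 to 1.22-fold. At ZT24 6 of the 10 were higher, against 4.43%: Acadm, Acadl, Acadvl, Hadha, Hadhb and Hadh, by 1.16 to 1.20-fold. None of the 10 was called lower at these times, against 8.28% and 4.46% of all genes. All DRF libraries lay above all NRF libraries in 5 of the 10 at ZT0 and 3 of the 10 at ZT24, against 5.21% and 7% of all genes. At ZT4, ZT8 and ZT20 limma called 0 of the 10, against 0.447%, 0.389% and 14.8% of all genes, and unadjusted p-values under 0.05 were reached by 4 of the 10 (Acadm, Hadhb, Decr1 and Eci1), 1 (Acadm) and 1 (Hadhb), beside 1668, 2066 and 4222 of the 13869 genes. Between ZT24 and ZT0 of the same regimen limma called 0 of the 10, and 0 had an unadjusted p under 0.05 (0.0577% and 0.469% of all genes were called under NRF and DRF, and 1271 and 1699 had an unadjusted p under 0.05).

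These counts leaned on single libraries. At ZT0 the count fell to 1 without NRF replicate 2 and to 3 without DRF replicate 2, DRF replicate 4 or NRF replicate 4. At ZT24 it fell to 1 without DRF replicate 1, NRF replicate 3 or NRF replicate 4, and to 3 without DRF replicate 4. Without the 2 libraries at odds with their labels the counts were 5 at ZT0, against 3.55% of all genes, and 7 at ZT24, against 5.4%, Eci1 being added (adjusted p = 0.0364), and Eci1 was called higher at ZT4 (log2 0.31 ± 0.08, adjusted p = 0.0145), against 1.66%. Median-of-ratios scaling gave 8 at ZT0, with 967 higher and 983 lower calls over all genes in place of 420 and 1148, and leaving out mitochondrially encoded genes gave 7, with 612 and 752. At ZT0 the atrial marker sum was 1021 to 2457 TPM under DRF and 94.2 to 1917 TPM under NRF, and the cardiomyocyte marker sum 26465 to 29570 TPM and 27862 to 36494 TPM. At ZT24 the sum of the 3 skeletal muscle markers was 922 to 1063 TPM under DRF and 1204 to 1488 TPM under NRF, without overlap, and the macrophage marker sum 284 to 388 TPM and 370.2 to 547 TPM. Their part in the differences was not tested.

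**Figure D3:**
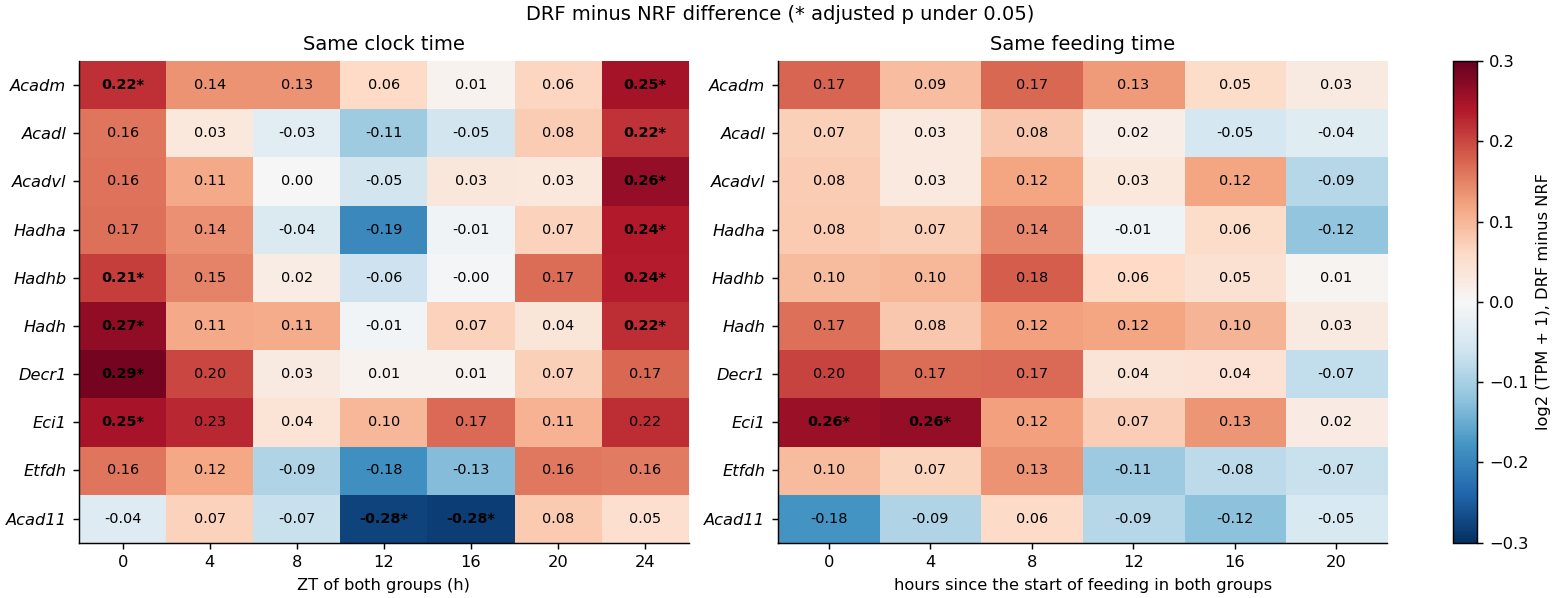
Difference DRF minus NRF on the log2(TPM + 1) scale for each enzyme (rows, colour and printed value), at the same ZT in hours (left) and at the same number of hours since the start of feeding (right). Stars mark adjusted p under 0.05 (limma). At the same ZT the values run from 0.29 (Decr1, ZT0) to -0.28 (Acad11, ZT12 and ZT16), and at the same feeding time only Eci1 at 0 and 4 h carries a star.

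When the groups were matched by hours since the start of feeding, only Eci1 was called. DRF ZT0 was set against NRF ZT12, where Eci1 held 543, 481, 542 and 490.0 TPM, below every DRF library at ZT0. The log2 difference was 0.26 (95% interval 0.10 to 0.42, adjusted p = 0.0376), against 2.18% of all genes called higher. At 4 h, with DRF ZT4 against NRF ZT16, it was 0.26 (0.10 to 0.42, 0.033), against 3%, and 0.34 (adjusted p = 0.00283), against 2.52%, without the 2 libraries at odds with their labels. Eci1 at DRF ZT0 was thus higher than at NRF ZT0 and at NRF ZT12, which are comparisons that share the DRF ZT0 libraries. For the other 9 genes the matched differences lay between -0.18 (Acad11 at 0 h) and 0.20 (Decr1 at 0 h), none called at any of the 6 matched times (5, 2, 4, 1, 0 and 0 of the 10, in order of time, had an unadjusted p under 0.05, beside 2791, 2644, 2837, 2492, 4929 and 5100 of the 13869 genes), and the share of all genes called at 8, 12, 16 and 20 h was 5.56%, 5.18%, 22.9% and 24.1%. The widest 95% bounds over these 9 genes were -0.34 and 0.36.

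Averaged over the 7 times, 6 of the 10 were higher under DRF, against 2.88% of all genes called higher and 26.1% called lower. These were Eci1 (586 ± 40.2 against 526 ± 45.3 TPM, SD, n = 28 each, log2 difference 0.16 ± 0.03, adjusted p = 0.000156), Acadm, Hadh (0.12 ± 0.03, 0.000727), Hadhb, Decr1 (0.11 ± 0.03, 0.00413) and Acadvl (0.08 ± 0.03, 0.0466). The called differences corresponded to 1.06 to 1.12-fold. Acadl, Hadha and Etfdh differed by 0.04, 0.05 and 0.03 and were not called, but each was called higher with median-of-ratios scaling. Acad11 stood at -0.07 ± 0.03 (adjusted p = 0.0978). The median over the 10 was 0.09, beside -0.05 over all tested genes. In bulk tissue, more cells of a type and more RNA per cell cannot be told apart. The share of mitochondrially encoded reads, the atrial marker sum (median 884 TPM under DRF and 272 TPM under NRF), the skeletal muscle marker sum (1076 and 1226 TPM), the cardiomyocyte marker sum (28425 and 29593 TPM) and the non-muscle marker sums given above also had different medians or means in the 2 regimens, and their part in the level differences was not tested.

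The all-gene centre mattered for this comparison. Of 4018 genes called over the day 400 were higher and 3618 lower under DRF, whereas median-of-ratios scaling gave 1340 higher and 1515 lower, moved the median of all genes from -0.05 to 0.00, and called 9 of the 10 enzymes higher. Leaving out the mitochondrially encoded genes gave 705 higher and 1658 lower, with 8 of the 10 higher. The day difference of Acad11 was below 0 and that of each of the other 9 above 0 under all 3 scalings. With all libraries Acad11 was not called lower under any of these scalings. Without the 2 libraries 6 were higher, against 2.66%, and Acad11 was called lower (-0.08 ± 0.03, adjusted p = 0.0397), against 28.9%.

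The 10 transcripts were compared with each other over the 14 group means, as a description. Leaving Acad11 aside, the 36 pairs had correlations of 0.50 to 0.92 with a median of 0.83. The highest were Hadhb with Decr1 (0.92), Acadm with Hadh (0.92) and Acadl with Hadha (0.92). Acad11 ranged from -0.19 with Eci1 to 0.65 with Etfdh. The deviations of single libraries from their group means also ran together, with a median of 0.79 over the same 36 pairs. With both libraries at odds with their labels left out, the 36 pairs had correlations of 0.41 to 0.93 with a median of 0.81, the within-group median was 0.79, and Acad11 ranged from -0.31 to 0.64. Libraries share depth, scaling and dissection, so these values say that the enzymes varied together within groups as well as between them, and no test was made.

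A joint profile was formed as the mean of the standardised group means of the 10. It stood above 0 at ZT0, ZT4, ZT8, ZT20 and ZT24 under DRF (0.46 to 1.19) and only at ZT8 under NRF (0.85), and was lowest at ZT24, ZT0 and ZT4 under NRF (-1.16, -0.94 and -0.88), followed by ZT12 under DRF (-0.84). Hadhb lay closest to it (correlation 0.98) and Acad11 farthest (0.39). Each of the 10 is itself part of the profile, which raises these values beside those of genes outside it. Among all other tested genes the 5 most alike over the 14 groups were Acaa2 (0.97), the mitochondrial ketoacyl-CoA thiolase that performs the last step of the cycle, Ddb2 (0.95), a DNA damage binding protein, Gm13910 (0.95), Ndrg2 (0.94) and Cbx7 (0.93), a Polycomb protein. Gm13910 is annotated as a processed pseudogene, and its reads may be shared with a near-identical gene. Acaa2 averaged 1115 TPM, close to Acadl. With those libraries left out the profile stood at 0.53 at NRF ZT8 and at 0.02 at NRF ZT12, Hadhb (0.97) and Acad11 (0.34) were again the closest and the farthest, and Acaa2 (0.96), Gm13910 (0.94), Ndrg2 (0.93), Ddb2 (0.92) and Cbx7 (0.92) ranked 1, 2, 3, 5 and 6.

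Other genes of the pathway were described by lists of known function, whose counts stand against the shares of all genes given above: 37.3% rhythmic under NRF, 32.4% under DRF, 27.7% different by clock time, 41.5% by feeding time, and 2.88% higher and 26.1% lower over the day. The list of 16 other enzymes, all tested, also holds genes of neighbouring acyl-CoA breakdown: Pcca, Pccb and Mut, which handle propionyl-CoA, and Acad8 and Acadsb, which act in branched-chain amino acid breakdown. Of these 16, 3 differed in rhythm by clock time (Acaa2, Acad12 and Eci2) and 1 by feeding time, 2 were higher (Acaa2 and Pccb) and 1 lower (Acads) over the day, Pccb and Acads being named after their values were seen, and the median day difference was 0.01. Eci2, a second enoyl-CoA isomerase, had an adjusted p of 0.0122 by clock time and 0.895 by feeding time. Acaa2 was rhythmic under DRF (adjusted p = 0.0133, peak ZT1.93) and was higher under DRF by 0.09 on the log2 scale over the day (0.0228). Acad10 reached 0.0502 by clock time and 0.0443 by feeding time.

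For the steps upstream of the cycle the median of the larger amplitude was 0.16 on the log2 scale, beside 0.08 for the 10 enzymes. Of 12 genes for fatty acid activation and the carnitine shuttle, which brings long-chain acyl groups into mitochondria, 6 were rhythmic under NRF and 9 under DRF, 5 differed by clock time and 6 by feeding time, and 2 were lower over the day, of which the feeding-time and lower counts lie near or below the shares of all genes. Cpt1a, the liver-type carnitine palmitoyltransferase of the outer membrane, peaked at ZT7.74 under NRF and ZT22.3 under DRF, with fitted folds of 2.01 and 1.87. Cpt2, which re-forms acyl-CoA inside, peaked at ZT11.7 and ZT2.52 with folds of 1.21 and 1.18, and was lower over the day (-0.11, adjusted p = 0.0214). Acsl1, the main acyl-CoA synthetase of heart, differed by clock time (1.86e-05) and by feeding time (0.000174), with peaks at ZT8.06 and ZT1.72. Slc22a5, the carnitine transporter of the cell surface, peaked at ZT13.1 and ZT22.3.

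Of 9 tested genes of peroxisomal oxidation, which shortens very long chains outside mitochondria, 7 differed by clock time and 5 by feeding time, with 1 higher and 1 lower over the day. Ehhadh, the peroxisomal bifunctional enzyme, had folds of 1.73 under NRF and 2.42 under DRF and was higher over the day by 0.29 (0.00186). Acox3 and Hsd17b4 differed on both time scales.

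Of the 14 PPAR responsive genes outside the oxidation chain 12 differed by clock time and 9 by feeding time, 6 were higher and 1 lower over the day, and their median day difference was 0.14. The median of the larger amplitude was 0.49 in this list and 0.08 in the 10 enzymes. Pdk4, the kinase that restrains glucose oxidation, had a fitted fold of 6.31 under NRF (peak ZT5.15) and 13.1 under DRF (peak ZT21.5). Slc27a1, a fatty acid transport protein, Mlycd, which degrades the inhibitor malonyl-CoA, and Acot1, an acyl-CoA thioesterase, differed on both time scales, with folds of 2.11, 1.86 and 3.92 under DRF. Their fitted DRF peaks were at ZT1.81, ZT23.5 and ZT23.2.

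Among 14 regulators 5 differed by clock time and 5 by feeding time, 2 were higher and 5 lower over the day, of which all but the higher count lie near the shares of all genes. Rxrg, a partner receptor of the PPARs, was rhythmic under NRF (peak ZT1.47) and not called under DRF (adjusted p = 0.173). Esrra, the estrogen-related receptor alpha, had fitted peaks at ZT22.0 under NRF and ZT4.98 under DRF. Its DRF rhythm was not called (limma, adjusted p = 0.112). Esrra was lower over the day (-0.08, 0.0206). Foxo1 and Esrrg differed by clock time (0.00337 and 0.0175). Without the 2 libraries the counts of clock-time differences in the 5 lists were 4, 6, 7, 12 and 7, in the order given, and each of the other counts moved by at most 1.

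**Figure D4:**
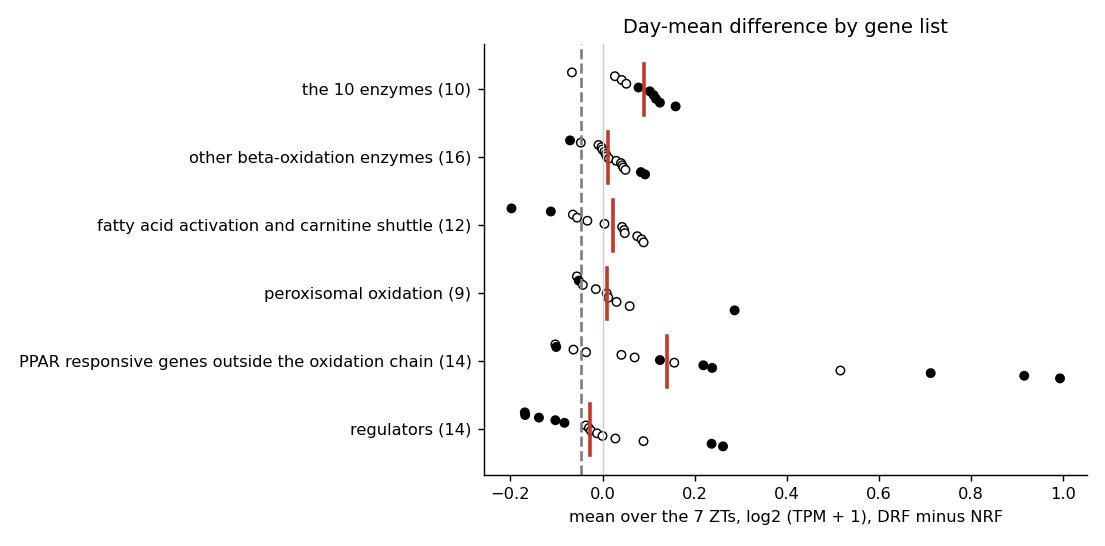
Difference of the mean over the 7 ZTs, DRF minus NRF on the log2(TPM + 1) scale (x axis), for every tested gene of 6 lists (rows, number of genes in brackets), where the row of other beta-oxidation enzymes includes the genes of neighbouring acyl-CoA breakdown. Filled points have an adjusted p under 0.05 (limma), red bars are list medians, and the dashed line is the median of all tested genes at -0.05. The 10 enzymes sit close together around 0.09, the PPAR responsive genes spread widely around 0.14, and the other lists centre between -0.03 and 0.02.

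The promoters of 9 of the 10 enzymes were matched in the RefSeq table (GRCm38.p6), which covers 250 bases before and 50 after each gene start. Letters were searched on both strands: AGGTCA, the half-site bound by many nuclear receptors, AGGNCANAGGNCA, a direct repeat of it spaced by 1 base (DR1), AAGGTCA, the extended site of estrogen-related receptors that contains the first, CACGTG, the E-box of clock factors, and TGTTTAC, a forkhead site. Acadm and Acadvl held the half-site, which 16.3% of all 32851 promoters held, and Acadm held the extended site, present in 4.72%. None of the 9 held the repeat, the E-box or the forkhead letters (0.381%, 7.15% and 3.65% of all promoters), which says nothing of binding elsewhere. These sequences are shown because they carry the only matches, in capitals, with the stretch upstream of Acadm read from chr3:153944644-153944893 and that of Acadvl from chr11:70015498-70015527, both on the minus strand and 5′ to 3′ toward the gene:
Acadm: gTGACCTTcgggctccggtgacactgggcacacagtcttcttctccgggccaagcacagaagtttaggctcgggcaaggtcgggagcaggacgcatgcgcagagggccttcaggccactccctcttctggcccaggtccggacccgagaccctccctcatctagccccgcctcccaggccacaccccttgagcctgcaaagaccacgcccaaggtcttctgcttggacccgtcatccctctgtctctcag
Acadvl: atggatcaccctAGGTCAggtagaatacag
In Acadm the capitals are the extended site on the opposite strand, at the upstream end of the stretch, and in Acadvl the half-site, 87 bases before it.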

How the data were processed

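Mouse heart RNA was sequenced as 56 paired-end polyA libraries. Per the submitters' processing notes, reads were aligned with HISAT2 2.0.5 to mm10 and counted with featureCounts 1.5.0-p3; the annotation, the use of strand and the counting of reads or pairs are not given in the sources used here. The deposited values, named TPM by the authors, are not linear: in each library they are a constant times log2(1 + scaled read count) divided by exon length (unit recorded as other). Whole read counts were recovered from the deposited values (99.9996% of 1.27928e+06 values lay within 0.1 of a whole read) and linear TPM was computed from them with GENCODE M21 exon lengths or, for 832 genes including Eci1, a length found from the values, while the planned tests, which had assumed linear TPM, were kept.

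Genes averaging 1 TPM or more were tested on log2(TPM + 1) with limma 3.58.1 (R 4.3.3) and Benjamini-Hochberg adjustment over all 13869 genes. Fold changes are on this scale, which understates changes of low genes. Rhythms were fitted as a 24-h cosine by regimen, in place of the study's rhythm programs, which were not run here. Phase differences up to 4 h count as locked and from 8 to 12 h as inverted, for genes rhythmic under both regimens. The 10 members and all gene lists were chosen with earlier results of these data known. Named list genes are the 4 of each list with the lowest adjusted p of the clock-time difference (1 of them is not reported here), and the 5 most alike genes are those with the highest correlation to the joint profile. Scripts were tested on simulated data. Alternatives were another scaling, TPM without mitochondrially encoded genes, a pseudocount of 0.1, no filter, the deposited values, a replicate block, and leaving out replicates, ZTs or the 2 libraries at odds with their labels.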

Additional observations from a re-analysis of the deposited data

Results flagged for a closer look

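In 10 of the 140 groups of 4 libraries (10 genes, 14 groups), the highest or lowest library lay far from the other 3 by Dixon's criterion, where chance gives about 1 in 20 groups, or 7. In 3 genes this was NRF ZT16 replicate 4, which was high for Acadvl (463 TPM, others 414 to 418), Hadh (274 TPM, others 234 to 241) and Eci1 (556 TPM, others 485 to 491). NRF ZT24 replicate 2 was high for Acadvl (456 TPM, others 385 to 393) and Decr1 (239 TPM, others 183 to 192). At DRF ZT0, Acadm was low in replicate 3 (604 TPM, others 636 to 639) and Eci1 in replicate 1 (583 TPM, others 622 to 627). Hadhb was high in DRF ZT12 replicate 4 (437 TPM, others 391.6 to 398), and Etfdh was low in DRF ZT20 replicate 2 (150.1 TPM, others 184 to 189.6). Acadm was high in NRF ZT8 replicate 1 (655 TPM, others 555 to 563), one of the libraries at odds with their labels.

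The day course differed between DRF and NRF by clock time, tested as the difference of the fitted rhythms with limma, for Hadha (adjusted p = 0.00163), Etfdh (0.00218), Acadl (0.00233), Hadhb (0.00456), Acad11 (0.0074) and Decr1 (0.0438).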

How the results depend on the processing

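The counts below are of the 10 enzymes called, and no named value that was called changed sign under any alternative. Except where given above, the share of all genes called under these alternatives was not counted. The count of feeding-time differences was 0 under every alternative run. Median-of-ratios scaling gave 1 rhythmic under DRF, 8 called at ZT0, 0 at ZT12, 0 at ZT16 and 2 at ZT20. TPM without mitochondrially encoded genes gave 5 rhythmic under NRF, 1 under DRF, 0 called at ZT12 and 4 at ZT20. A pseudocount of 0.1 gave 2 rhythmic under NRF, and no filter gave 3 under DRF. The deposited values gave 0 rhythmic under DRF, 3 clock-time differences, and 0, 0, 0, 1 and 0 called at ZT0, ZT12, ZT16, ZT20 and ZT24. Leaving out ZT0 gave 2 rhythmic under NRF and 3 under DRF; ZT12, 0 and 0 with 2 clock-time differences; ZT16, 0 and 2; ZT20, 2 under NRF; and ZT24, 3 under DRF. Without the 2 libraries at odds with their labels, an alternative chosen after seeing the data, 1 was called at ZT4. With single replicates left out the counts ran from 0 to 0 (rhythm under NRF), 0 to 3 (rhythm under DRF), 4 to 7 (clock time), 0 to 0 (feeding time), 5 to 6 (day mean), 1 to 6 (ZT0), 0 to 1 (ZT4), 0 to 0 (ZT8), 0 to 1 (ZT12), 0 to 1 (ZT16), 0 to 1 (ZT20), 1 to 8 (ZT24) and 0 to 0 (ZT24 against ZT0). At ZT4 the 1 call came without DRF replicate 1, and at ZT20 without DRF replicate 2. The cause of these changes was not tested.

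The replicate numbers did not pair the libraries: of 28 same-numbered pairs 1 had deviations correlated above 0.1, with a median of -0.03 beside 0.01 for other numbers. With a replicate block 1 and 6 enzymes were rhythmic under NRF and DRF, 7 and 0 differed by clock and feeding time, 6 differed over the day, and 5, 0, 0, 1, 1, 0 and 6 were called from ZT0 to ZT24. Each enzyme had at least 2931 reads in every library, so the spread between libraries, rather than depth, limits these comparisons.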
